A study of Mus musculus with 32 samples.

Results

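Resident macrophage markers, a set of 6 genes that mark long-lived tissue macrophages, were followed in the hearts of 32 C57BL/6 mice from a social defeat model of posttraumatic stress disorder. Timd4, Lyve1, Cd163, Mrc1, Folr2 and Cbr2 were taken by the gene name that the array design gives its probes. They were read by 7 probes of the 55681 on the array, 1 for each gene and a second for Cbr2. All 6 genes passed the filter on dim probes, among 27532 genes tested of 36409 gene names on the array. In the stressed arms, each mouse spent 6 hours a day in a mesh box within an aggressor's cage and was repeatedly exposed to its attacks, for 5 or 10 days, and then rested. T5R1 was 5 days of exposure and 1 day of rest, T5R10 was 5 days and 10 days, T10R1 was 10 days and 1 day, and T10R42 was 10 days and 42 days. Every condition had 4 stressed mice and 4 controls of its own, and the controls sat in the same kind of box in a cage that held no aggressor. Genotype beyond the strain, age and sex are not given in the sources used here for any group. Total RNA of each heart was labelled with Cy3 and read on its own 1-colour expression array, so all values are levels in bulk tissue and the replicates are separate mice.

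Resident macrophages of the heart are seeded before birth and largely renew themselves in place, whereas other cardiac macrophages come from blood monocytes that express Ccr2. Those that carry Timd4, Lyve1 and Folr2 are known for clearing dying cells and debris around vessels. The 6 markers have different roles. Timd4 binds phosphatidylserine on dying cells, Lyve1 binds hyaluronan, Mrc1 is the mannose receptor, Cd163 takes up haemoglobin bound to haptoglobin, Folr2 is a folate receptor, and Cbr2 is a carbonyl reductase. Several are not exclusive to macrophages. Lyve1 also marks lymphatic endothelium, Mrc1 is found on liver sinusoidal and lymphatic endothelium, and Cbr2 is abundant in lung. In bulk tissue, fewer cells of a type and less RNA per cell cannot be told apart.

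Upstream sequence is shown for the 3 genes that passed a test of stress against control in at least 1 condition. It was taken from RefSeq promoters on GRCm38.p6, which matched 5 of the 6 genes in 6 windows, with 2 start sites for Folr2. Each run is the 250 bases before the start on the gene's strand, and capitals mark matches to 5 short motifs searched on both strands.
Mrc1 (chr2:14229164-14229413, + strand): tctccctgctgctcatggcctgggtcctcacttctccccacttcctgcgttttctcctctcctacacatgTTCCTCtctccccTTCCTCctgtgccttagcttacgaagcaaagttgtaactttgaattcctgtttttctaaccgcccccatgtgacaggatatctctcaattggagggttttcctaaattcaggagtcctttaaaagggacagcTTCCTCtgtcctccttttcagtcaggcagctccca
Folr2, first start (chr7:101857191-101857440, - strand): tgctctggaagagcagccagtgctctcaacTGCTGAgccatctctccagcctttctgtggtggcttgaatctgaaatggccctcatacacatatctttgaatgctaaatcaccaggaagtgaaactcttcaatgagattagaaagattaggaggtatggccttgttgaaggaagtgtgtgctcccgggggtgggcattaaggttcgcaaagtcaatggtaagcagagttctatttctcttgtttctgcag
Folr2, other start (chr7:101845332-101845581, - strand): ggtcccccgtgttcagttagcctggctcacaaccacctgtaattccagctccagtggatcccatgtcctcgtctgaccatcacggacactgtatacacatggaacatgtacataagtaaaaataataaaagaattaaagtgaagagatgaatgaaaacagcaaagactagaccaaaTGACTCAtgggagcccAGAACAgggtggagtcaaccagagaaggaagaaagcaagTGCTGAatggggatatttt
Timd4 (chr11:46810549-46810798, + strand): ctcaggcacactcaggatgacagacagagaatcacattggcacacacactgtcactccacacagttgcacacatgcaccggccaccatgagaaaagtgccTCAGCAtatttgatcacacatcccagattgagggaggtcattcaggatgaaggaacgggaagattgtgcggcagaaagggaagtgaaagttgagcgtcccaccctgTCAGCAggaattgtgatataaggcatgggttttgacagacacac
The core of the PU.1 motif (GAGGAA), PU.1 being a factor that all macrophages need, matched 3 times in the Mrc1 window, at 180, 167 and 35 bases before the start, each on the opposite strand. It matched once in the Cbr2 window and in 23.3% of all 32851 windows of the same length. The MAF core motif (TGCTGA) matched 2 times in the Timd4 window, at 150 and 44 bases, and 1 time in each Folr2 window, against 16.1% of all windows. The glucocorticoid receptor core motif (AGAACA; 16.1% of all windows) matched in the Cd163 window and at the other Folr2 start. The AP-1 motif (TGAGTCA; 4.46%) matched at the other Folr2 start alone among the 6 windows. The TATA box letters (TATAAA; 12.4%) were in none of these 6 windows. These are matches of letters, which show no site in use.

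The array positions are given on mm9, the build of the array's annotation. Mrc1 was read at chr2:14253273-14253332, Folr2 at chr7:108988771-108988830, Timd4 at chr11:46657173-46657232, Lyve1 at chr7:117994171-117994230 and Cd163 at chr6:124270436-124270495, each by a probe of 60 bases matched to the gene's mRNA. Cbr2 was read at chr11:120590825-120590884 by its brighter probe and at chr11:120592059-120592118 by its second one. The probes shown are those for Folr2, which gave the smallest spread between mice, for Cd163, which was the dimmest, and the second Cbr2 probe, which checks the first.
Folr2 probe: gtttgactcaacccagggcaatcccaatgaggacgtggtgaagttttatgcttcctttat
Cd163 probe: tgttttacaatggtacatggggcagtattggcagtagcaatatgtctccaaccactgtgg
Cbr2 second probe: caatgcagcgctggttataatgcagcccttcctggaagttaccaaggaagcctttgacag
All 6 genes were well above background on all 32 arrays, except Cd163, which was on 30, and 0 of the 7 probes were saturated.

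Levels are log2 signals relative to the array's own 75th percentile, so 0 stands for that percentile, and a negative level is dimmer than it rather than absent. All 12 cardiomyocyte genes checked were well above background on all 32 arrays. Arrays had 28792 to 40672 probes well above background, and replicates of a group correlated at 0.982 to 0.994 over all genes tested. Each condition filled 1 slide of 8 arrays, so every stressed arm was compared with controls on its own slide. Within a slide, however, controls and stressed mice lay in different array columns, and an effect of the column and of stress cannot be told apart. The T10R1 slide was scanned on another day than the other 3. The scanner software marked 3 arrays for evaluation, all in T5R10. On 5 arrays the summed linear level of 4 lung epithelial genes that passed the filter was 4.26 to 71.6, against at most 1.37 on the other 27: T5R1 control replicates 1 and 4, T5R1 stressed replicate 2, T10R42 control replicate 1 and T10R42 stressed replicate 4. Of these genes, Sftpc was at 3.94, 5.64 and 3.67 on T5R1 control replicate 4, T10R42 control replicate 1 and T10R42 stressed replicate 4. On T5R1 control replicate 1 and T5R1 stressed replicate 2, Sftpc was not well above background (-5.90 and -5.46). Scgb1a1, also in the sum, was 1.93 and 4.06 there. The values without these 5 arrays are given beside the results they change.

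**Figure D1:**
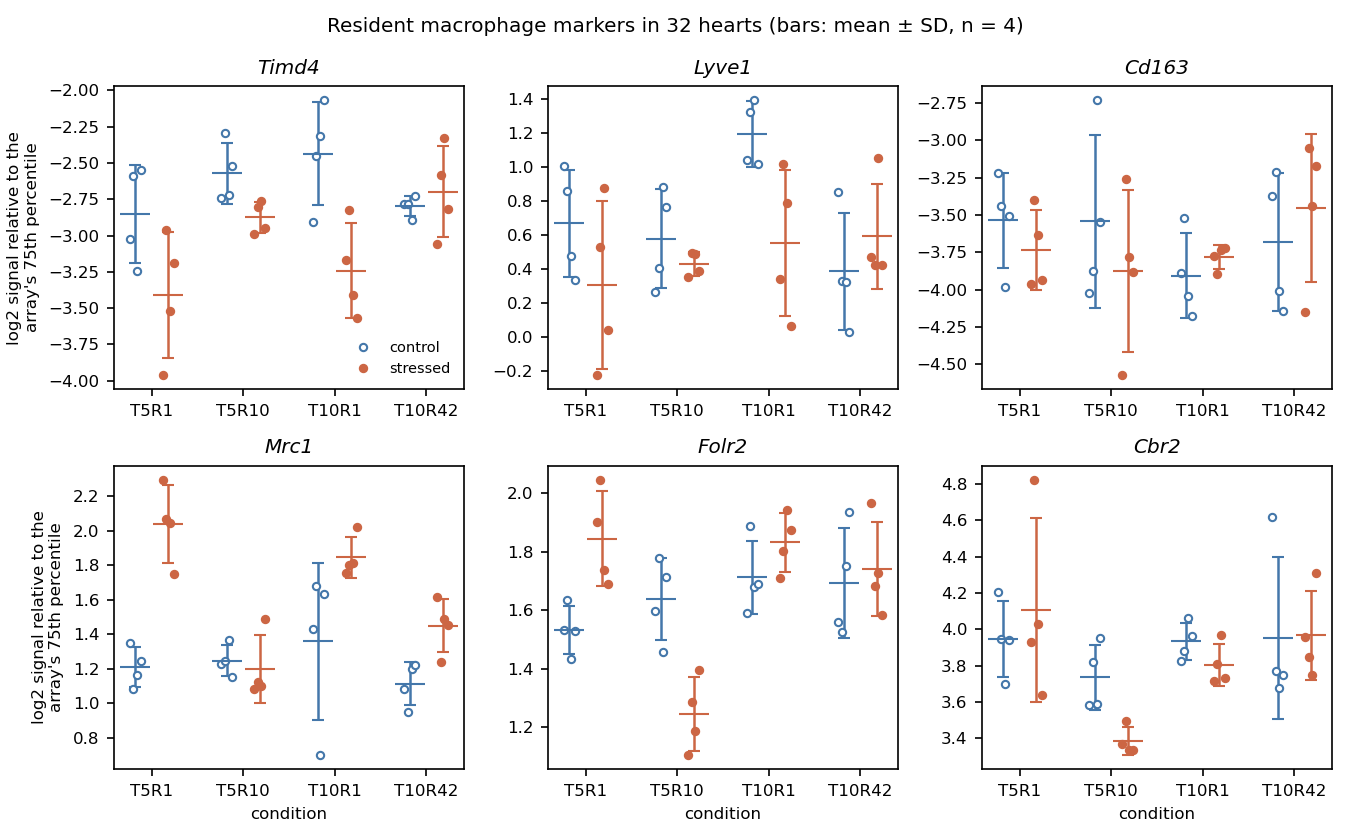
Level of each of the 6 markers (log2 signal relative to the array's 75th percentile) in every heart, by condition, with controls as open blue points, stressed mice as filled orange points, and bars at the mean ± SD of 4 mice. The 4 stressed T5R1 mice lie between 1.75 and 2.30 for Mrc1, all above their controls, while Timd4 is low in most stressed T10R1 mice and Folr2 is lowest in stressed T5R10 mice.

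After 1 day of rest, Mrc1 was measured higher and Timd4 lower in stressed hearts, so the 6 markers did not move as a block there. With longer rest, all 6 were measured lower in T5R10 and all 6 higher in T10R42, but several of these values were near 0. In T10R42, Timd4 (0.10), Folr2 (0.05) and Cbr2 (0.01) changed sign with another background correction or scaling. In T5R10, Mrc1 (-0.05) changed sign without the arrays marked for evaluation. One day after 5 days of exposure, Mrc1 was 1.78-fold and Folr2 1.24-fold higher than in controls. One day after 10 days of exposure, Timd4 was 1.75-fold lower. Its signal was dim, and with another background correction the log2 difference was -0.42 rather than -0.81. None of the 6 passed the test after 10 or 42 days of rest. In T5R1, 2 of 6 markers were higher at an adjusted p below 0.05, where 5.3% of all genes tested were higher and 8.43% lower (13.7% in either direction). Of the T5R1 calls over all genes, 61.4% were lower, a share of 36.5% with quantile normalization. In T10R1, 1 of 6 was lower, where 0.36% of all genes were lower and 0.774% higher (1.13% in all). In T5R10 0 of 6 passed, where 0.0218% of all genes were higher and 0.0545% lower (0.0763% in all). In T10R42 0 of 6 passed, where 0.287% were higher and 0.61% lower (0.897% in all). The median difference of the 6 was -0.02 in T5R1, -0.32 in T5R10, -0.01 in T10R1 and 0.15 in T10R42, beside medians over all genes of -0.12, -0.02, 0.00 and -0.03. All tests are from limma, with p-values adjusted over 27532 genes, and a difference is given in log2 ± SE.

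**Figure D2:**
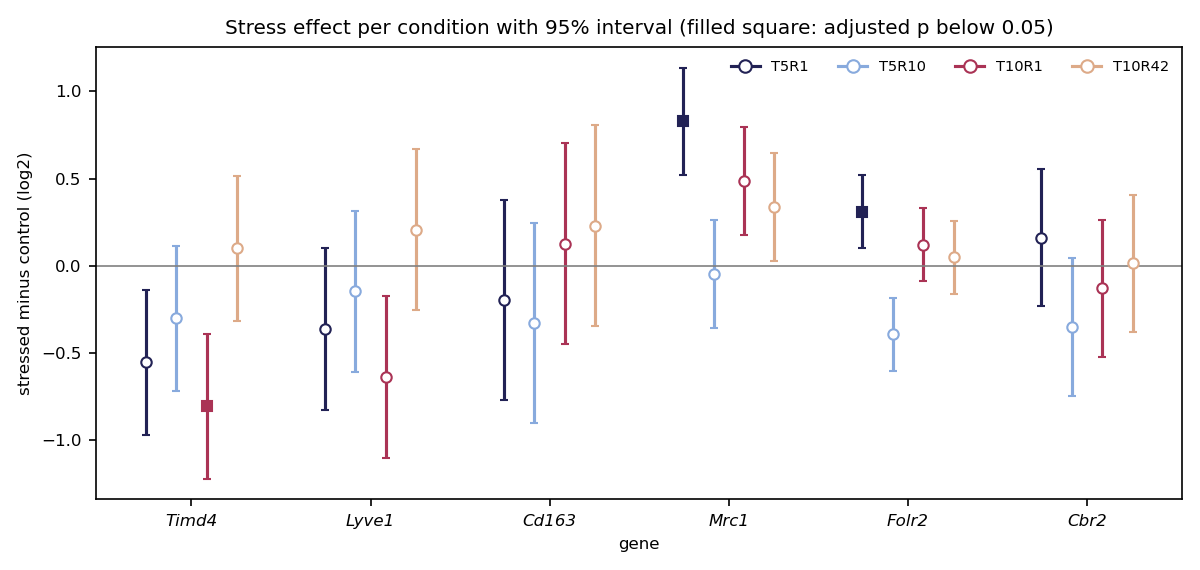
Difference of stressed from control mice (log2) for each marker in each condition, with the 95% interval of the limma fit over 8 groups of 4 mice. Filled squares mark an adjusted p below 0.05, which Mrc1 and Folr2 reached in T5R1 and Timd4 in T10R1.

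Mrc1, the mannose receptor that internalises glycoproteins and collagen fragments, had levels of 1.35, 1.08, 1.16 and 1.24 in T5R1 controls and of 2.30, 2.07, 2.04 and 1.75 in T5R1 stressed mice. Every stressed mouse was above every control, by a mean of 0.83 ± 0.15 (adjusted p = 0.000551). The 95% interval ran from 0.52 to 1.14. In T10R1 the controls had 1.43, 1.68, 0.70 and 1.63 and the stressed mice 1.75, 1.80, 1.81 and 2.02. The arms again did not overlap, but control replicate 3 was far below the other 3 and the difference of 0.49 ± 0.15 did not pass (adjusted p = 0.126). In T10R42 the controls had 1.08, 0.95, 1.2 and 1.22 and the stressed mice 1.62, 1.24, 1.49 and 1.45. The stressed mice were all above the controls here too, with a difference of 0.34 ± 0.15 (adjusted p = 0.221). Among all genes, stressed mice lay wholly above controls in 6.63% and wholly below in 15.7% in T5R1 (22.3% in all). In T10R1 these shares were 4.3% and 5.48% (9.77% in all), and in T10R42 4.15% and 7.3% (11.4% in all). T5R10 was the exception, with controls at 1.23, 1.24, 1.37 and 1.15 and stressed mice at 1.08, 1.12, 1.10 and 1.49. There 3 stressed mice were below all controls and 1 above them, and the difference was -0.05 ± 0.15 (95% interval -0.36 to 0.26), or 0.01 without the 3 arrays marked for evaluation. Averaged over the 4 conditions, Mrc1 was higher by 0.40 ± 0.08 (adjusted p = 0.00122).

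Folr2, the folate receptor on resident and some tumour macrophages, had levels of 1.53, 1.64, 1.43 and 1.53 in T5R1 controls and of 1.90, 2.05, 1.74 and 1.69 in T5R1 stressed mice. The arms did not overlap, as in 22.3% of all genes in T5R1 (6.63% with stressed mice higher, 15.7% lower). The difference was 0.31 ± 0.10 (adjusted p = 0.0427). This call was near the threshold: it was lost in 10 of 20 alternative analyses, with adjusted p-values from 0.0191 to 0.278. Without the 5 arrays with lung RNA the difference was 0.24 (adjusted p = 0.278), and without each T5R1 control in turn, or without stressed replicate 1 or 2, it was 0.24 to 0.34 and did not pass. In T5R10 the order was the opposite. Controls had 1.60, 1.78, 1.46 and 1.71 and stressed mice 1.10, 1.29, 1.19 and 1.40, all of them below every control. Stressed mice lay wholly below controls in 3.23% of all genes there and wholly above in 2.6% (5.84% in all). The difference of -0.39 ± 0.10 had an unadjusted p of 0.000681 and an adjusted p of 0.102. In T10R1 and T10R42 the arms overlapped, with differences of 0.12 ± 0.10 and 0.05 ± 0.10 (adjusted p = 0.67 and 0.847). Neither 95% interval, -0.09 to 0.33 and -0.16 to 0.26, reached down to the T5R10 value.

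The stress effects on Folr2 and Mrc1 differed between 1 and 10 days of rest after the 5-day exposure. The T5R10 effect minus the T5R1 effect was -0.70 ± 0.14 for Folr2 (adjusted p = 0.0087) and -0.88 ± 0.21 for Mrc1 (adjusted p = 0.0257). These were 2 of 6 markers, where 1.31% of all genes were lower and 1.18% higher in that comparison (2.49% in all). The other 4 did not pass: Cbr2 had -0.51 ± 0.27, Cd163 -0.13 ± 0.40, Lyve1 0.22 ± 0.32 and Timd4 0.25 ± 0.29. Neither difference passed without the 3 arrays marked for evaluation, at -0.63 for Folr2 (adjusted p = 0.0507) and -0.81 for Mrc1 (0.0801). Without the arrays with lung RNA they were -0.63 (0.0787) and -0.96 (0.0975). The Mrc1 difference also missed the threshold without T5R1 control replicate 2 or 3, T5R1 stressed replicate 1 or T5R10 stressed replicate 3, at -0.84, -0.86, -0.79 and -0.84. Between the 2 conditions with 1 day of rest, 0 of 6 effects differed, where 0.36% of all genes were higher and 0.232% lower (0.592% in all). The T10R1 effect minus the T5R1 effect was -0.34 ± 0.21 for Mrc1 (adjusted p = 0.409), -0.19 ± 0.14 for Folr2 (0.513) and -0.25 ± 0.29 for Timd4 (0.681).

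Timd4, the phosphatidylserine receptor by which resident macrophages hold on to dying cells, had levels of -2.91, -2.45, -2.31 and -2.06 in T10R1 controls. The T10R1 stressed mice had -3.17, -2.82, -3.41 and -3.57. These were dim signals, with intensities of 50.8 to 105 in controls and 30.8 to 58.9 in stressed mice. Those of Cd163 in the same controls were 19.8 to 39.1. In 3 of 4 stressed mice Timd4 was below every control, and stressed replicate 2 lay just above the lowest control. The difference was -0.81 ± 0.20 (95% interval -1.22 to -0.39, adjusted p = 0.0463). The call was lost in 13 of 20 alternative analyses, where the adjusted p ran from 0.0103 to 0.204 and the difference from -0.96 to -0.42. It missed the threshold without T10R1 control replicate 2, 3 or 4 or stressed replicate 1, 3 or 4, at -0.83 to -0.68, and background correction by normexp gave -0.42 (adjusted p = 0.0523).

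In the other short-rest condition, T5R1, Timd4 was -3.03, -2.59, -3.24 and -2.55 in controls and -3.96, -2.96, -3.52 and -3.19 in stressed mice. The arms overlapped and the difference of -0.56 ± 0.20 did not pass (adjusted p = 0.0669). Over 20 alternative analyses the T5R1 difference ran from -0.70 to -0.20. The difference passed with slide row as a covariate (adjusted p = 0.0379), with normexp (0.0291), without T5R1 control replicate 3 (0.0401) and without stressed replicate 2 (0.0289). In T5R10, controls had -2.74, -2.30, -2.72 and -2.52 and stressed mice -2.99, -2.81, -2.76 and -2.94. Every stressed mouse was below every control by a small margin, and the difference was -0.30 ± 0.20 (adjusted p = 0.514). Such an order was found in 3.23% of all genes in T5R10, and the opposite order in 2.6% (5.84% in all). In T10R42 controls lay between -2.89 and -2.72 and stressed mice between -3.06 and -2.33, a wider range on both sides, with a difference of 0.10 ± 0.20 (adjusted p = 0.84). Averaged over the 4 conditions, Timd4 was lower by a log2 difference of -0.39 ± 0.10 (adjusted p = 0.0131). With quantile normalization this was -0.28 and did not pass (adjusted p = 0.0666). Timd4 and Mrc1 were the 2 of 6 markers called in that mean, where 5.26% of all genes were higher and 7.3% lower (12.6% in all).

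Lyve1, the hyaluronan receptor of macrophages along vessels and of lymphatics, followed Timd4 in direction but passed nowhere. In T10R1 its levels were 1.04, 1.32, 1.39 and 1.01 in controls and 0.34, 1.02, 0.79 and 0.06 in stressed mice. Here too 3 of 4 stressed mice were below every control, with a difference of -0.64 ± 0.23 (95% interval -1.10 to -0.18, adjusted p = 0.193). In T5R1 the difference was -0.36 ± 0.23 (0.285), in T5R10 -0.15 ± 0.23 (0.8) and in T10R42 0.21 ± 0.23 (0.665). Between 42 days and 1 day of rest after the 10-day exposure, the stress effect on Timd4 differed by 0.91 ± 0.29 (adjusted p = 0.0661) and that on Lyve1 by 0.85 ± 0.32 (0.115). Neither passed, and 0 of 6 markers did, where 1.89% of all genes were higher and 2.23% lower (4.12% in all). For Timd4, 5 of 28 alternatives crossed the threshold, among them the authors' value table (0.73, adjusted p = 0.0205). The scan day differed between those 2 slides, and its part in this difference cannot be told apart from that of the rest.

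Signal from tissue around the heart was measured beside these 2 genes. The summed linear level of 8 adipocyte genes was 22.2 to 58.04 in T10R1 controls and 5.41 to 21.7 in stressed mice, so the arms did not overlap. All 8 were measured lower in T10R1 and in T5R1, with medians of -1.61 and -1.34, and 0 of 8 passed. In T5R10, where Timd4 and Lyve1 were measured lower, all 8 were measured higher (median 0.43). In T10R42, where both were measured higher, all 8 were measured lower (median -0.20). None of the 8 passed in either condition. In T5R1 the sum was 34.9 to 49.2 in controls and 2.84 to 42.3 in stressed mice. All 6 mesothelial genes were measured lower in T10R1 and 4 of 6 in each other condition (T10R1 median -0.36, none called), with sums of 9.81 to 11.5 in controls and 5.28 to 10.8 in stressed mice. Of 5 genes listed as peritoneal macrophage markers, all well above background on all 32 arrays, none passed in any condition. Which cells gave their signal in bulk heart was not measured. The part of this surrounding tissue in the levels of Timd4 and Lyve1 was not tested.

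Cd163, the haemoglobin scavenger receptor, was close to background, and its spread was wide. Group means lay between -3.91 and -3.45, and the SD of 4 mice reached 0.58 in T5R10 controls. No difference passed: it was -0.20 ± 0.28 in T5R1, -0.33 ± 0.28 in T5R10, 0.13 ± 0.28 in T10R1 and 0.23 ± 0.28 in T10R42, with adjusted p-values from 0.622 to 0.891. The 95% interval in T5R1 was -0.77 to 0.38, so a difference as large as that of Folr2 there could not have been detected at this signal.

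Cbr2, the carbonyl reductase, had its 4 highest levels on arrays with lung RNA. These levels were on T5R1 stressed replicate 2 (4.82), T10R42 control replicate 1 (4.62), T10R42 stressed replicate 4 (4.31) and T5R1 control replicate 1 (4.20), all among the 5 arrays with lung RNA. On these arrays Scgb1a1, the secretory protein of club cells in the airway, had levels of 4.06, 4.36, 3.68 and 1.93, and on the fifth array, T5R1 control replicate 4, Scgb1a1 was 1.96 and Cbr2 3.94. On the other 27 arrays Scgb1a1 was at most 0.03. Scgb1a1 was itself in the sum that marked the 5 arrays, so this split partly repeats how they were picked. Cd163 was also above the mean of its group on all 5 of these arrays, by 0.03 to 0.33, while Cbr2 was at -0.0050 from it on T5R1 control replicate 4. The part of lung RNA in the levels of either gene was not tested. In T5R10, where no array carried such signal, controls had 3.58, 3.82, 3.59 and 3.95 and stressed mice 3.37, 3.5, 3.33 and 3.33. The arms did not overlap, as in 5.84% of all genes there (3.23% with stressed mice lower, 2.6% higher). The difference of -0.35 ± 0.19 did not pass (adjusted p = 0.413). The second probe gave -0.33 ± 0.18, and the 2 probes had the same sign in T5R1, T5R10, T10R1 and T10R42. Elsewhere Cbr2 differed by 0.16 ± 0.19 in T5R1, -0.13 ± 0.19 in T10R1 and 0.01 ± 0.19 in T10R42. Without T5R1 stressed replicate 2, the T5R1 difference was -0.08.

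**Figure D3:**
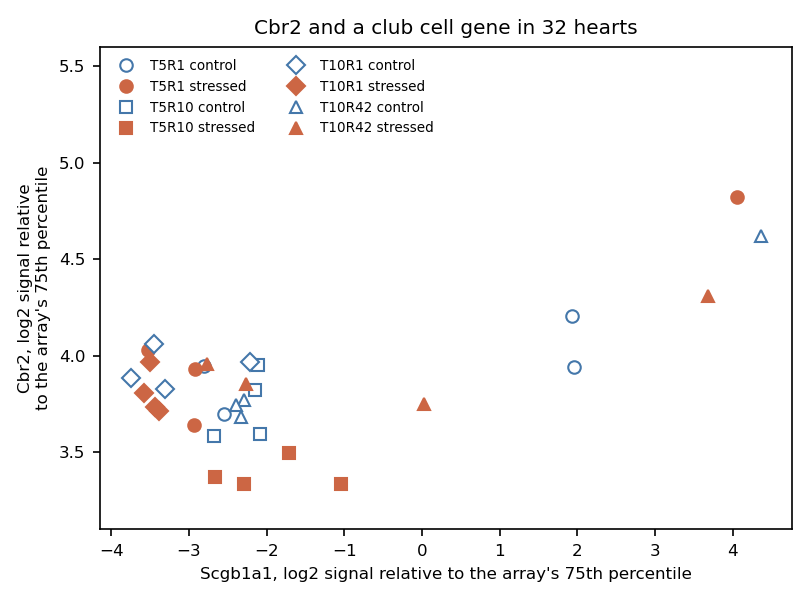
Level of Cbr2 against that of the club cell gene Scgb1a1 in each of 32 hearts, both as log2 signal relative to the array's 75th percentile, with controls open, stressed mice filled and 1 symbol per condition. The 4 highest Cbr2 levels, 4.20 to 4.82, lie on arrays where Scgb1a1 is 1.93 or more.

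The 2 conditions with longer rest held no call, and the 6 markers had the same sign within each. In T5R10 all 6 were measured lower, and for Folr2, Cbr2 and Timd4 the arms did not overlap. Of all genes there, 3.23% had stressed mice wholly below controls and 2.6% wholly above (5.84% in all). In T10R42 all 6 were measured higher by 0.01 to 0.34, and Mrc1 was the 1 marker whose arms did not overlap. Stressed mice lay wholly above controls in 4.15% of all genes in T10R42 and wholly below in 7.3% (11.4% in all). Of the 6 T10R42 values, those of Timd4, Folr2 and Cbr2 changed sign with another background correction or scaling. The T5R10 value of Mrc1 changed sign without the arrays marked for evaluation.

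The T5R1 and T10R42 slides held all 5 arrays with lung RNA, and without them each arm there lost 1 or 2 mice. In T5R1 the differences were then 0.91 for Mrc1 (adjusted p = 0.0155), -0.64 for Timd4 (0.145), -0.44 for Lyve1 (0.365), -0.13 for Cd163 (0.857) and 0.05 for Cbr2 (0.852). In T10R42 they were 0.32 for Mrc1 (0.435), 0.42 for Lyve1 (0.454), 0.24 for Cd163 (0.772), 0.14 for Timd4 (0.809), 0.12 for Cbr2 (0.64) and 0.06 for Folr2 (0.858). Among these values Mrc1 in T5R1 was the 1 call. The mean over the 4 conditions was 0.42 for Mrc1 (0.00955) and -0.40 for Timd4 (0.0323), both still called.

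Ranked over the 8 groups, the markers had different orders. Each condition lay on its own slide, and the T10R1 slide was scanned on another day. In steps between groups of different conditions, slide and condition therefore cannot be told apart. Mrc1 was highest in T5R1 stressed mice (2.04 ± 0.23, SD, n = 4) and T10R1 stressed mice (1.85 ± 0.12), which overlapped each other and lay above T10R42 stressed mice (1.45 ± 0.16) without overlap. The remaining 5 groups, from 1.36 down to 1.11, overlapped their neighbours. Folr2 was highest in the same 2 groups (1.84 ± 0.16 and 1.83 ± 0.10), and its one clear step was at the bottom, between T5R1 controls (1.53 ± 0.08) and T5R10 stressed mice (1.24 ± 0.13). Cbr2 had its step at the same place, from T5R10 controls (3.74 ± 0.18) to T5R10 stressed mice (3.38 ± 0.08). Lyve1 was highest in T10R1 controls (1.19 ± 0.19), which cleared the next group, T5R1 controls (0.67 ± 0.31), by a small margin and overlapped T10R42 stressed and T10R1 stressed mice. Timd4 and Cd163 had no step between neighbouring groups. Timd4 ran from -2.43 ± 0.35 in T10R1 controls to -3.41 ± 0.44 in T5R1 stressed mice.

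Within groups, correlations between the markers were weak to moderate. Over 15 pairs in 32 mice, each taken as deviation from the mean of its group, Pearson's r lay between -0.29 and 0.41. Lyve1 with Cd163 had the highest r of 0.41 (permutation p = 0.0153, adjusted over 15 pairs 0.229) and a Spearman's rho of 0.47 (adjusted p = 0.128). Without the 2 mice farthest from the median of Lyve1, r was 0.40. On the separate slides it was 0.70 in T5R1, 0.78 in T5R10, -0.01 in T10R1 and 0.30 in T10R42. Mrc1 with Folr2 had r = 0.39 (permutation p = 0.0448, adjusted 0.336) and a Spearman's rho of 0.45 (adjusted p = 0.148). Its r was 0.41, 0.28, 0.35 and 0.74 on the slides in the same order. Without the 2 mice farthest from the median of Mrc1, which are not those left out for Lyve1, r was 0.41. No pair passed the adjustment, which with 32 mice does not show that the markers varied independently.

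The lists of related genes were chosen by their known roles, with earlier results of these data known. Their counts stand beside shares over all genes tested of 5.3% higher and 8.43% lower in T5R1. These shares were 0.774% and 0.36% in T10R1, 0.0218% and 0.0545% in T5R10, and 0.287% and 0.61% in T10R42. Of 29 other genes of resident macrophages, 6 were higher and 1 lower in T5R1, with a median of -0.04 (5 and 1 without the arrays with lung RNA). Ccl8, a chemokine made by resident macrophages, was higher by 2.49 ± 0.32 (adjusted p = 1.02e-05). Stab1, a scavenger receptor for altered lipoproteins and dying cells, was higher by 0.61 ± 0.10 (0.000224), and Maf, a transcription factor of resident macrophages, by 0.76 ± 0.16 (0.0018). Cd36, the fatty acid transporter that muscle and fat cells also express, was lower by -0.31 ± 0.09 (0.015), a call absent after 3 other scalings (-0.26 to -0.21). In T10R1, Ccl8 was the 1 gene called (1.55 ± 0.32, adjusted p = 0.0154). In T5R10 the smallest p was that of Fcna, a ficolin (-0.56 ± 0.17, adjusted p = 0.155), and in T10R42 that of Cd209d, a lectin (-0.31 ± 0.15, 0.257).

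Among genes that all macrophages share, calls were higher only and came after 1 day of rest. Of 24, 15 were higher and 0 lower in T5R1, with a median of 0.67, and 2 were higher in T10R1 (median 0.32). Ms4a7 was higher by 1.94 ± 0.29 in T5R1 and 1.46 ± 0.29 in T10R1 (adjusted p = 5.52e-05 and 0.0103). Cd68, a lysosomal glycoprotein, was higher by 1.17 ± 0.20 in T5R1 (0.000344) and Laptm5, a lysosomal protein of blood cells, by 0.72 ± 0.13 (0.0005). The receptor for the macrophage growth factor, Csf1r, was higher by 0.45 ± 0.09 in T10R1 (0.016). In T5R10 and T10R42 none was called, with medians of -0.14 and -0.04. The smallest p there belonged to the integrin Itgam (-0.49 ± 0.18, adjusted p = 0.204) and to Laptm5 (-0.46 ± 0.13, 0.0666). The summed linear level of the 24 was 111 to 134 in T5R1 controls and 128 to 177 in stressed mice, 115 to 155 and 143 to 181 in T10R1, and 102 to 125 and 81.0 to 109 in T5R10. These ranges overlapped in all 3 conditions. The T5R1 count was 14 or 15 with the other scalings and 6 without the arrays with lung RNA, which leave 2 controls and 3 stressed mice. The T5R10 effect was below the T5R1 effect in 7 of 24, and in 0 of 24 without those arrays.

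Genes of monocytes and recruited macrophages were higher in 10 of 19 in T5R1, with a median of 0.59, and in 4 of 19 without the arrays with lung RNA. Trem2, a lipid-sensing receptor, was higher by 1.72 ± 0.23 (adjusted p = 1.99e-05), Vcan, a proteoglycan of monocytes and fibroblasts, by 1.19 ± 0.15 (1.22e-05), and S100a4 by 0.98 ± 0.14 (3.94e-05). In T10R1 only Fn1, fibronectin, which fibroblasts also make, was called (1.25 ± 0.31, 0.0436), and it missed the threshold with quantile normalization (0.0584) and without the arrays with lung RNA (0.0948). Ccr2 in T5R10 (1.11 ± 0.45, 0.259) and Itgal in T10R42 (-0.59 ± 0.15, 0.0541) had the smallest p and did not pass. None of 7 genes of MHC class II, which antigen-presenting macrophages carry, passed in any condition, and all 7 were measured lower in T5R1 (median -0.51, H2-Eb1 at -0.66 ± 0.33).

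**Figure D4:**
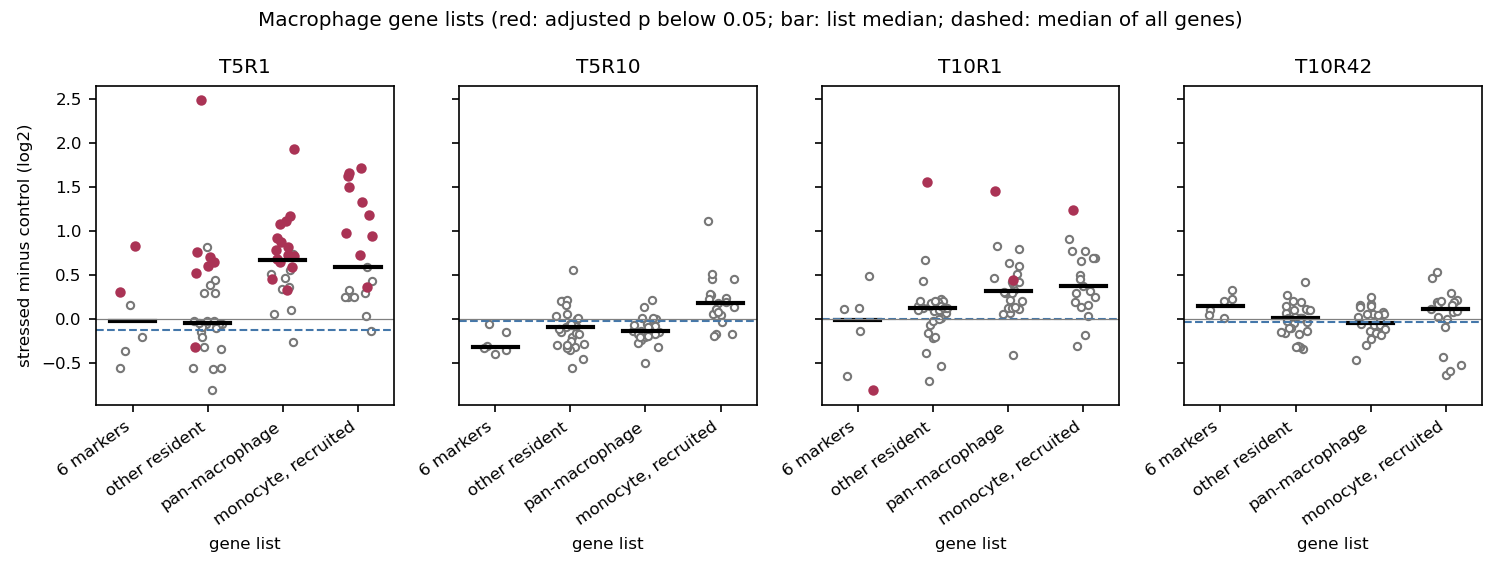
Difference of stressed from control mice (log2) for each gene of 4 lists in each condition, with called genes in red, the list median as a black bar and the median of all genes as a dashed line. In T5R1, 15 of 24 pan-macrophage genes and 10 of 19 monocyte and recruited macrophage genes are called higher, against 2 of the 6 markers.

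Partners of each marker were read from lists of their pathways. In T5R1, 5.3% of all genes were called higher and 8.43% lower (13.7% in all). For Timd4, 16 genes of apoptotic cell uptake gave 3 higher and 1 lower call in T5R1, and Timd4 itself was the 1 call in T10R1. The receptor tyrosine kinases Tyro3 (0.93 ± 0.15, adjusted p = 0.000116) and Axl (0.36 ± 0.11, 0.0258) bind dying cells through bridging proteins, and both were higher in T5R1, as was Stab1. For Folr2, 11 genes of folate uptake and use gave 3 higher and 1 lower call in T5R1. Folr2 itself is in this list and was 1 of the 3 higher calls. Mthfd2, a mitochondrial enzyme of dividing cells, was higher by 1.31 ± 0.24 (0.000583), while Shmt2 was lower by -0.22 ± 0.07 (0.0336). The Shmt2 call was lost with all 3 other scalings (-0.19 to -0.17). In T10R42, Tyms, which makes thymidylate, was lower by -0.41 ± 0.09 (0.0264), a call lost with normexp and with the authors' value table. Without the arrays with lung RNA, 2 uptake genes were called higher in T5R1 and 1 folate gene, and none lower, and Timd4 and Tyms did not pass.

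For Cd163, 12 genes of haemoglobin scavenging and haem breakdown gave 2 higher and 1 lower call in T5R1. Of all genes there, 5.3% were called higher and 8.43% lower (13.7% in all). The ferritin light chain gene Ftl1 was higher by 0.40 ± 0.12 (adjusted p = 0.0236) and Blvrb, a biliverdin reductase, by 0.46 ± 0.14 (0.0333). Fth1, the ferritin heavy chain, was lower by -0.24 ± 0.06 (0.0109), but stood at 0.0041 with quantile normalization and -0.03 in the authors' value table, so its direction depends on the scaling. In T10R1, Lrp1, the receptor for haem bound to haemopexin, was higher by 0.39 ± 0.10 (0.0431). For Lyve1, 12 genes of hyaluronan metabolism held 1 call in T5R1, that of Vcan, and none elsewhere. Of 9 lymphatic endothelial genes, 2 were higher in T5R1, Pdpn (0.59 ± 0.15, 0.0102) and Itga9 (0.36 ± 0.12, 0.0473), while Lyve1 was measured lower there. Their summed linear level was 32.5 to 38.8 in T5R1 stressed mice, above the 26.3 to 29.2 of controls. In T10R1 it was 38.6 to 43.6 against 31.3 to 38.9, and 0 of 9 passed. Without the arrays with lung RNA, 0 of the 12 haem genes, 1 of the 12 hyaluronan genes and 1 of the 9 lymphatic genes were called in T5R1, and Lrp1 was not called in T10R1.

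Growth factor and cytokine signals of macrophages held 15 genes. In T5R1 the growth factor Csf1 was higher by 0.49 ± 0.11 (adjusted p = 0.00347), its receptor Csf1r by 0.33 ± 0.09 (0.0193) and Il13ra1, a chain of the interleukin-13 receptor, by 0.43 ± 0.13 (0.031). Klf4, a transcription factor that favours the alternatively activated state, was lower by -0.41 ± 0.12 (0.0211). In T10R1, Csf1r was the 1 call, and in T5R10 and T10R42 there was none. Without the arrays with lung RNA, 1 of the 15 was called in T5R1, higher.

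Genes of other cell types were called in the same hearts. Fibroblast genes were higher in 6 of 12 in T5R1 and 8 of 12 in T10R1 (Col3a1 by 2.95 ± 0.32 and 2.29 ± 0.32), and genes of dividing cells in 10 of 11 in T5R1 and 1 of 11 in T10R1. In T5R1, 3 of 7 neutrophil genes and 3 of 5 erythroid genes were also higher. Without the arrays with lung RNA, the T5R1 counts of fibroblast, dividing cell, neutrophil and erythroid genes were 5, 10, 0 and 0, and that of dividing cell genes in T10R1 was 0. No blood endothelial, adipocyte, mesothelial, lung or B cell gene passed in any of the 4 conditions, and 1 cardiomyocyte gene (Tnni3) and 1 T cell gene (Cd3e) were lower in T5R1, the first with a value of -0.0017 under quantile normalization. Of 14 glucocorticoid receptor targets, Mt2 was higher and Ddit4 lower in T5R1, close to the 13.7% of all genes called there (5.3% higher, 8.43% lower). The part of these cell types in the marker levels was not tested.

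The genes whose pattern was most like that of a marker were found by Pearson's r over 32 mice, as a description, from deviations from the control mean of the condition. For Mrc1 they were Rab3il1 (0.89) and Rgs19 (0.86), for Folr2 Mx2 (0.84) and Pidd1 (0.83), and for Timd4 Sucla2 (0.80) and Retnla (0.78). Lyve1 was most like Amd-ps6 (0.83) and Amd2 (0.79), near-identical copies that a probe may not separate. For Cd163, Abcg2 (0.64) was among the genes most like it. Cbr2 was most like Ccdc153 (0.74) and Dynlrb2 (0.65), both genes of motile cilia. Ccdc153 was at -1.96, -2.51 and -1.63 on the 3 arrays with the highest Scgb1a1, and at most -3.21 on the 27 arrays without lung RNA. On T5R1 control replicates 1 and 4, which also carried lung RNA, it was -3.63 and -3.42, below that maximum. For the mean of the 6 markers, the most alike genes were Hnrnpdl (0.70), Ppp4r1 (0.66), Slc25a14 (0.64), Wscd1 (0.63) and Mpp5 (0.63). With deviations from the mean of each group instead, they were Chka (0.75), Kctd10 (0.71), Trnp1 (0.70), Hnrnpdl (0.67) and Slamf1 (0.67). These points share arrays and scaling with the markers.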

How the data were processed

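Hearts of 32 mice (8 groups of 4) were each read on a 1-colour Agilent array. The deposited intensity of each spot came background-subtracted from Feature Extraction 10.7.3.1 (Agilent), per the file headers, with flags for outliers and for spots well above background. The deposited value table holds log2 values of the authors, which correlated at 0.9995 or more with log2 of the mean signal of the same array. Its column medians ran from 5.85 to 6.26, and its centring is not given in the sources used here. It served as an alternative.

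Each array's processed signals were divided by their 75th percentile (237.2 to 498.9) and taken as log2. Outlier spots (5470) and control spots were left out, and spots of a probe were averaged. Probes well above background on 3 of 4 arrays of at least 1 group were kept (38824 of 55681), and the brightest per gene was tested (27532 genes). Differences came from limma 3.58.1 in R 4.3.3, fitted over all 8 groups, with Benjamini-Hochberg adjustment over all genes tested and a threshold of 0.05. On data simulated for T5R1, over 27532 genes, limma recovered 76% of 100 genes changed by a log2 of 1 and 95% of 100 changed by 2. It also called 10 genes that were not changed. The simulated noise was independent between genes and arrays, and fewer genes were changed than were called in T5R1. Changes below a log2 of 1, the size of the markers' stress effects, were not simulated, so their recovery is not known. The number of arrays limits the precision.

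The 6 markers and the 24 gene lists were chosen with earlier results of these data known. In each list and condition, the genes named are among the up to 3 called ones with the smallest p in each direction or, with no call, the 1 with the smallest p. Scgb1a1 was named after its values were seen. The markers were found by the gene name of the array's design. Of the 55681 probes, 26413 got a current symbol through their accession in RefSeq's gene table, 574 through another probe of the same name, and 28694 kept the array's name. Replicate numbers were not taken to pair the mice. Alternatives were background correction, normalization, filter, probe choice, the samples fitted, slide row, a replicate block and leaving out arrays. Leaving out the arrays with lung RNA was chosen after seeing the data. Some genes that the naming rule gives are not reported here.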

Additional observations from a re-analysis of the deposited data

Results flagged for a closer look

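Over 48 sets of 4 mice (6 markers in 8 groups), 3 held a mouse whose gap to the nearest of the others exceeded Dixon's 95% critical value, a number that chance alone would give at about 1 in 20 sets. Lyve1 was 1.05 in T10R42 stressed replicate 3, where the other 3 mice had 0.42 to 0.47. Mrc1 was 1.49 in T5R10 stressed replicate 4, where the other 3 had 1.08 to 1.12. Cbr2 was 4.62 in T10R42 control replicate 1, where the other 3 had 3.68 to 3.77, and this was the array with the highest summed level of lung genes (71.6). The part of lung RNA in that value was not tested.

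Of 18 tests of a difference between stress effects (6 markers in 3 comparisons of conditions), 2 passed in limma after adjustment over 27532 genes. The T5R10 effect minus the T5R1 effect was -0.88 for Mrc1 and -0.70 for Folr2. In T5R1 all 4 stressed mice were above every control for both genes. Of all genes there, 6.63% had stressed mice wholly above controls and 15.7% wholly below (22.3% in all). In T5R10 all 4 were below every control for Folr2, where 3.23% of all genes were wholly below and 2.6% wholly above (5.84% in all). For Mrc1 in T5R10, 3 stressed mice were below every control and 1 was above them, with a stress effect of -0.05 ± 0.15. Each condition lay on its own slide, so slide and condition cannot be told apart in these differences.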

How the results depend on the processing

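Of 1234 alternative values of the 6 markers, 1161 kept their direction and their side of the threshold, 32 lost a call, 9 gained one and 32 changed sign, 0 of them a called value. Mrc1 in T5R1 was called in all 20 of its alternatives (0.74 to 0.93). Cd163 has no value where probes had to be well above background on all 32 arrays. Where a setting changed a count, the cause was not tested, except that leaving out arrays also leaves fewer mice. Dim probes and 4 mice a group limit what could be detected.

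The marker count in T5R1 (2) was 1 with no filter, with the arrays of the conditions compared alone, with the replicate block and without the arrays with lung RNA. In T10R1 (1) it was 0 under those 4 settings, with normexp, with quantile normalization and without the marked arrays. The mean over conditions (2) gave 1 with quantile normalization. The T5R10 minus T5R1 count (2) was 0 without the marked arrays and 0 without those with lung RNA, and the T10R42 minus T10R1 count (0) was 1 with the authors' value table, with the stricter filter and with slide row. Leaving out 1 mouse gave 1 to 2 in T5R1, 0 to 1 in T10R1, 1 to 2 for T5R10 minus T5R1 and 0 to 1 for T10R42 minus T10R1.

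Over all genes, the number of calls moved further. The T5R1 count (3778) was 1655 without the arrays with lung RNA, and 2177 to 3835 without 1 mouse. The T5R10 count (21) was 86 with quantile normalization, 33 with the authors' value table, 9 with no filter, 39 with the stricter filter, 0 with the condition's own arrays alone, 0 with the replicate block, 7 with slide row, 1088 without the marked arrays, 7 without those with lung RNA and 5 to 606 without 1 mouse. The T10R1 count (312) was 185 with quantile normalization, 181 with no filter, 4 with its own arrays alone, 161 without the arrays with lung RNA and 86 to 298 without 1 mouse. The T10R42 count (247) was 97 with normexp, 375 with quantile normalization, 127 with the authors' value table, 119 with no filter, 416 with the stricter filter, 0 with its own arrays alone, 508 without the marked arrays, 4 without those with lung RNA and 34 to 1444 without 1 mouse. The mean over conditions (3459) gave 2589 to 4276 without 1 mouse. The T5R10 minus T5R1 count (686) was 392 with no filter, 209 with the arrays compared alone, 396 with the replicate block, 171 without the arrays with lung RNA and 311 to 1062 without 1 mouse. The T10R42 minus T10R1 count (1135) was 539 with quantile normalization, 670 with the authors' value table, 451 with no filter, 49 without the arrays with lung RNA and 305 to 2093 without 1 mouse. The T10R1 minus T5R1 count (163) was 73 with quantile normalization, 12 with no filter, 308 with the stricter filter, 546 with the arrays compared alone, 268 with a trended and robust fit, 33 with the replicate block, 371 without the marked arrays, 3 without those with lung RNA and 11 to 321 without 1 mouse. The share of lower calls in T5R10, T10R1, T10R42 and the mean was 71.4%, 31.7%, 68.0% and 58.1%, and with quantile normalization 43.0%, 21.6%, 48% and 34.7%.

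Values near 0 changed sign. Mrc1 in T5R10 was 0.015 without the marked arrays. In T10R42, Timd4 was -0.019 with normexp, Folr2 -0.0080 with quantile normalization and -0.024 with the authors' value table, and Cbr2 -0.010, -0.027 and -0.059 with these 3. The mean effect on Cd163 was 0.075 with quantile normalization and 0.031 with the authors' value table. With normexp, its T5R10 minus T5R1 difference was 0.15 and its T10R42 minus T10R1 difference -0.015, and the latter for Cbr2 was -0.034 with the authors' value table. Without 1 mouse, Cbr2 in T5R1 ran from -0.080 to 0.31 and, in T10R42, Timd4 from -0.024 to 0.22, Folr2 from -0.027 to 0.13 and Cbr2 from -0.10 to 0.24. The mean of Cd163 ran from -0.094 to 0.026 and its T5R10 minus T5R1 difference from -0.34 to 0.14. The T10R42 minus T10R1 difference ran from -0.050 to 0.34 for Cd163, from -0.26 to 0.072 for Mrc1 and from -0.15 to 0.0090 for Folr2. Same-numbered mice of the 2 arms correlated at -0.27 to 0.21 over 16 pairs, with 5 over 0.1 and 6 that correlated best with their own number. The labels name no pairs, and correlations this weak cannot exclude pairing. With the replicate block, Folr2 in T5R1 (adjusted p = 0.0598) and Timd4 in T10R1 (0.0709) did not pass.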
